A study of Homo sapiens with 8 samples.

Results

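The genes of MHC class I antigen presentation were followed in CAL-27 cells, a human head and neck carcinoma line of squamous type, after exposure to inhibitors of protein kinase C. The members were 9 genes: HLA-B, HLA-C, HLA-E and HLA-F, which encode class I heavy chains; B2M, which encodes beta-2 microglobulin, the light chain that all class I molecules share; TAP1 and TAP2, the subunits of the transporter that carries peptides into the endoplasmic reticulum; and PSMB8 and PSMB9, catalytic subunits of the immunoproteasome. The array carried 30982 gene names in all. Members were taken by the gene name that the scanner tables give to each probe, which found 18 of the 41000 probes on the array: 4 for HLA-C, 3 for HLA-E, 2 each for HLA-B, HLA-F, B2M and TAP2, and 1 each for TAP1, PSMB8 and PSMB9. Gene expression was measured on 8 single-colour arrays, 1 per RNA sample. The groups were Go (n = 2), a compound that the labels name no further and whose dose they do not state; enzastaurin at 10 µM (n = 3), an inhibitor of protein kinase C; and untreated control (n = 3). Cells of all groups were first kept without serum for 24 h and then treated, or left as controls, for another 24 h. All samples come from 1 cell line, which limits them as a model, and the labels do not say whether replicates were separate cultures, so a p-value here compares groups with the scatter among arrays, which may be technical.

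Class I molecules display peptides from the cell's own proteins to CD8+ T cells. Peptides are cut by proteasomes, brought into the endoplasmic reticulum by TAP and bound there by a heavy chain paired with beta-2 microglobulin, and a heavy chain that stays without peptide is held back from the cell surface. HLA-B and HLA-C are classical heavy chains, HLA-E is best known as the ligand of the NKG2A receptor of natural killer cells, and HLA-F is a less studied heavy chain. Interferon and NF-kB act on many genes of this pathway through elements close to the transcription start, and squamous carcinomas often have low class I levels.

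The RefSeq promoter table of build GRCh38.p14, with windows from 250 bases before to 50 bases after a start, held 10 windows for 8 of the 9 members, all but HLA-E. The windows of HLA-B, HLA-C, HLA-F and B2M and the upstream of the 2 TAP1 windows are shown because heavy chain probes passed the array test below and those of the light chain and transporter did not. They are reference sequence, 5′ to 3′ along the gene, and not sequence of CAL-27 cells. Capitals mark matches on either strand to an NF-kB core, spelled GGGANTNNC, or to the core of an interferon-stimulated response element, spelled GAANNGAAA or GAAANNGAA; neighbouring matches can overlap.
HLA-B (chr6:31357130-31357429, minus strand): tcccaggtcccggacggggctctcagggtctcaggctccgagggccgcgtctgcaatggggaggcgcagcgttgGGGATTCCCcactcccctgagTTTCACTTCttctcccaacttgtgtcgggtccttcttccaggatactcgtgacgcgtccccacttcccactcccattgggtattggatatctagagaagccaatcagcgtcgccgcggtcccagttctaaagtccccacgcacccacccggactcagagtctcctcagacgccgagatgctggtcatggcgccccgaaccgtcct
HLA-C (chr6:31272043-31272342, minus strand): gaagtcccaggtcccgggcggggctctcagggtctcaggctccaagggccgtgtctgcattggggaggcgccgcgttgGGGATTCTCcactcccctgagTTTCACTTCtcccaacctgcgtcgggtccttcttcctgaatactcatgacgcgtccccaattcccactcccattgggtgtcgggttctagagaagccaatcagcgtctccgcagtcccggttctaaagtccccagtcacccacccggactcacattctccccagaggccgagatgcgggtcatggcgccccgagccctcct
HLA-F (chr6:29723184-29723483, plus strand): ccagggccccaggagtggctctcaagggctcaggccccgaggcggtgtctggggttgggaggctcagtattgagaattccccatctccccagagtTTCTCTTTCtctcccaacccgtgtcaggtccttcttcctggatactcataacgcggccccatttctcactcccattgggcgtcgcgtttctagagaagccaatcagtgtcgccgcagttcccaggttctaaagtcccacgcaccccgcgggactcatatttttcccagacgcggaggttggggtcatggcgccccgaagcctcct
B2M (chr15:44711267-44711566, plus strand): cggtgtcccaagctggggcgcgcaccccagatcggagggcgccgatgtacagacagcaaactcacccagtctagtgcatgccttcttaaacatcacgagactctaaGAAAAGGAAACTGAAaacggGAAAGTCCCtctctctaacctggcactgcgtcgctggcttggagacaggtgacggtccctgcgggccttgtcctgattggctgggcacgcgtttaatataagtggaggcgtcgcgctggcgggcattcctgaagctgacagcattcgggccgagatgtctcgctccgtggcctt
TAP1 (chr6:32853655-32853954, minus strand): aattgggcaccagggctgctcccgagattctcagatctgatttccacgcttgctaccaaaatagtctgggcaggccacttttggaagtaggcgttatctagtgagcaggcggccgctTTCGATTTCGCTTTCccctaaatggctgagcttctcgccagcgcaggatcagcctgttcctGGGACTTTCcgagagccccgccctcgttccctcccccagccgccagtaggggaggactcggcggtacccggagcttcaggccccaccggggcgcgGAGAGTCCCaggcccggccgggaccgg

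In HLA-B the NF-kB core, whose spelling matched the same bases on both strands, lay between 176 and 168 bases before the start and the interferon element core between 155 and 147. HLA-C had the same arrangement, with the NF-kB core at 172 to 164 and the interferon core at 151 to 143 bases before the start. B2M carried 2 overlapping interferon cores between 144 and 130 bases and an NF-kB core at 124 to 116 bases before its start. The upstream TAP1 window held 2 overlapping interferon cores between 133 and 119 bases, an NF-kB core at 72 to 64 bases before the start and another just after it, and HLA-F held an interferon core only, at 155 to 147 bases. Counted over the 8 genes, the NF-kB core was found in 5 and the interferon core in 7, with PSMB9 alone holding neither. By window, the NF-kB core was in 5 of 10 and the interferon core in 7 of 10. Of all 35116 windows in the table, 15.4% held the NF-kB core, 14.5% the interferon core and 1.9% both. The spellings were set with these windows in view, and a match is a description of the letters, not of binding.

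On an array, between 52.1% and 57.3% of probes lay above background, that is, had a signal-to-noise score over 3, and 16 to 57 probes were saturated on at least 50% of their pixels. Of the 18 member probes 16 were above background on at least 2 arrays and were tested, with all 24771 such probes, in 1 limma fit. The 2 others were a second probe of TAP2, never above background, and a second probe of B2M, above background on Go 2 only. From the recorded spot positions, Go 1 shared its slide with all 3 controls and Go 2 shared another with all 3 enzastaurin arrays, so no slide holds both enzastaurin and control. In a principal component analysis the leading axis carried 81.3% of the variance and put Go 1 at 4.16 and Go 2 at 40.5, enzastaurin at 45.6 to 50.3 and the controls at -85.8, -69 and -34.3. A fit with slide as a block was therefore run as well. Its value is given where it ended a call or moved a difference. Each slide held 1 Go array, so in the block Go against control is Go 1 against the controls. Likewise Go against enzastaurin is there Go 2 against the enzastaurin arrays. The enzastaurin-to-control difference of the block rests on Go 1 and Go 2 as the link between the slides. It equals the plain difference plus Go 1 minus Go 2. Heavy chain genes are near-identical to each other over long stretches, and probe sequences were not used here, so which of their transcripts a heavy chain probe bound is uncertain.

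The class I heavy chains were the members that differed from control. In enzastaurin-treated cells 7 of the 11 heavy chain probes, from all 4 heavy chain genes, were higher than in controls at a limma adjusted p under 0.05, and 0 were lower. The largest differences were in HLA-F (2.10-fold) and HLA-E (1.91-fold), and the other called probes lay between 1.30-fold and 1.40-fold. The 4 heavy chain probes that did not pass reached at most 1.25-fold. None of the 5 tested probes of B2M, TAP1, TAP2, PSMB8 and PSMB9 passed in either direction. In all, 7 of 16 member probes passed, beside 52.6% of all probes tested, with 22% higher and 30.6% lower. Enzastaurin arrays lay wholly above the controls for 9 of 16 member probes and wholly below for 0, beside 27.7% and 40.1% of all probes. The median log2 difference of the members was 0.25, against -0.07 over all probes tested, and 0.39 over the heavy chain probes alone. With the slide as a block 15 of 16 differences were above 0 and 1 passed. The medians there were 0.42 over the heavy chain probes and 0.30 over the other 5. These block values include the gap between the Go arrays, and Go 2 lay above Go 1 in only 2 of 16 member probes. With arrays scaled to the median 13 passed, all higher, beside 45.6% of all probes called and 29.5% higher. With bulk RNA, more cells making a transcript and more of it per cell cannot be told apart.

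HLA-F gave the largest member difference. Its probe A_23_P145264 had deposited signals (background-subtracted intensities, not normalised) of 6674 and 6555 in Go, 9032, 8640 and 8884 in enzastaurin, and 2129, 2437 and 4367 in control. Every treated array lay above every control, and control 3 was well above the other 2 controls. After normalisation the probe averaged 12.78 ± 0.18 log2 units in enzastaurin and 11.71 ± 0.38 in control (SD, n = 3 each), a difference of 1.07 (SE 0.181, limma adjusted p = 0.00255). In Go it averaged 12.58 ± 0.02 (SD, n = 2), which was 0.86 above control (SE 0.203, adjusted p = 0.0221). With the slide as a block both differences kept their size, 1.04 for enzastaurin (adjusted p = 0.149) and 0.85 for Go (adjusted p = 0.106), and neither passed. Control 3 exceeded control 1 by 0.76 on the same scale. The other HLA-F probe, A_23_P314024, read 15387 and 14264 in Go, 17914, 15692 and 17979 in enzastaurin, and 8526, 8152 and 10313 in control. Its treated arrays again lay above the controls, which were closely spaced. After normalisation enzastaurin 2 did so narrowly, at 13.398 against 13.391 in control 3. The difference was smaller, 0.38 for enzastaurin (SE 0.132, limma adjusted p = 0.042) and 0.41 for Go (SE 0.147, adjusted p = 0.0669). The enzastaurin call was kept in 9 of 16 alternative settings. In the slide block the differences were 0.42 for enzastaurin (adjusted p = 0.345) and 0.43 for Go (adjusted p = 0.186).

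HLA-E was represented by 3 probes that disagreed. A_24_P326082 had deposited signals of 17158 and 15794 in Go, 21017, 20371 and 23512 in enzastaurin, and 6521, 6559 and 10316 in control. Treated and control arrays did not overlap, and control 3 was again the highest control. Its normalised mean was 14.05 ± 0.29 in enzastaurin and 13.11 ± 0.21 in control (SD, n = 3 each), a log2 difference of 0.93 (SE 0.157, limma adjusted p = 0.00249), or 0.94 with the slide as a block (adjusted p = 0.137). Go, at 13.87 ± 0.01 (SD, n = 2), was 0.76 above control (SE 0.176, limma adjusted p = 0.0216), or 0.76 in the block (adjusted p = 0.0988). The probe A_23_P30848 read 5240 and 3267 in Go, 6958, 6450 and 6072 in enzastaurin, and 3377, 2908 and 3662 in control. Its Go arrays disagreed, Go 1 standing above every control and Go 2 not. Its difference between enzastaurin and control was 0.44 (SE 0.142, limma adjusted p = 0.0307) and became 0.96 with the slide as a block (adjusted p = 0.0479). No other member probe passed in the block, beside 1.67% of all probes that passed upward there. The block moved the difference by the gap between the Go arrays, Go 2 minus Go 1 being -0.52 for this probe. The call without the block was lost when control 1, 2 or 3 or enzastaurin 1 or 3 was left out. The third probe, A_32_P460973, differed by 0.00 between enzastaurin and control (95% interval -0.22 to 0.22, limma adjusted p = 0.992), with the groups overlapping.

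Of the classical heavy chains, HLA-C had 4 probes. A_24_P298409 read 39061 and 39821 in Go, 46201, 42514 and 42013 in enzastaurin, and 23617, 22216 and 29975 in control. Its normalised mean was 15.14 ± 0.05 in Go (SD, n = 2), 15.17 ± 0.18 in enzastaurin and 14.69 ± 0.16 in control (SD, n = 3 each). The groups of treated arrays lay apart from control, with log2 differences of 0.45 for Go (SE 0.128, limma adjusted p = 0.0345) and 0.48 for enzastaurin (SE 0.114, adjusted p = 0.00954). In the slide block they were 0.49 for Go (adjusted p = 0.118) and 0.55 for enzastaurin (adjusted p = 0.188).

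The brightest HLA-C probe, A_23_P113716, read 44075 and 46767 in Go, 55423, 55674 and 51344 in enzastaurin, and 34272, 33766 and 41031 in control. It was the only member probe with saturated pixels, at 13.5% and 16.7% of its pixels in Go, 28.2%, 19.1% and 13.5% in enzastaurin, and 0% in each control. The log2 difference was 0.41 for Go (SE 0.11, limma adjusted p = 0.0302) and 0.39 for enzastaurin (SE 0.0982, adjusted p = 0.0128). From the authors' own value table the Go difference was 0.14 (adjusted p = 0.299) and the enzastaurin difference 0.28 (adjusted p = 0.031), and scaling arrays to the 75th percentile gave 0.24 for enzastaurin (adjusted p = 0.0734). The slide block gave 0.41 for Go (adjusted p = 0.119) and 0.40 for enzastaurin (adjusted p = 0.248). The 2 other HLA-C probes did not pass in either comparison. A_23_P70539 differed by 0.33 between enzastaurin and control (limma adjusted p = 0.0669, under 0.05 in 7 of 15 alternative settings) without overlap of the groups, and A_23_P95917 by 0.14 (adjusted p = 0.267) with overlap.

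HLA-B passed with 1 of its 2 probes. A_23_P125107 read 22170 and 21337 in Go, 29352, 27098 and 26354 in enzastaurin, and 14159, 12553 and 16541 in control. Treated arrays were all above the controls, and the controls differed little after normalisation, with a range of 13.96 to 14.06 log2 units. The difference was 0.41 for enzastaurin (SE 0.107, limma adjusted p = 0.014) and 0.31 for Go (SE 0.12, adjusted p = 0.0822); the enzastaurin call was lost with the slide as a block, where the difference was again 0.41 (adjusted p = 0.272), and without control 2, enzastaurin 1 or enzastaurin 3. The probe A_24_P113674 read 44613 and 39086 in Go, 49046, 45899 and 48610 in enzastaurin, and 34895, 30009 and 34340 in control. Its unnormalised signals lay apart, but its normalised values overlapped, with a log2 difference of 0.16 between enzastaurin and control (95% interval -0.08 to 0.41, limma adjusted p = 0.212).

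**Figure D1:**
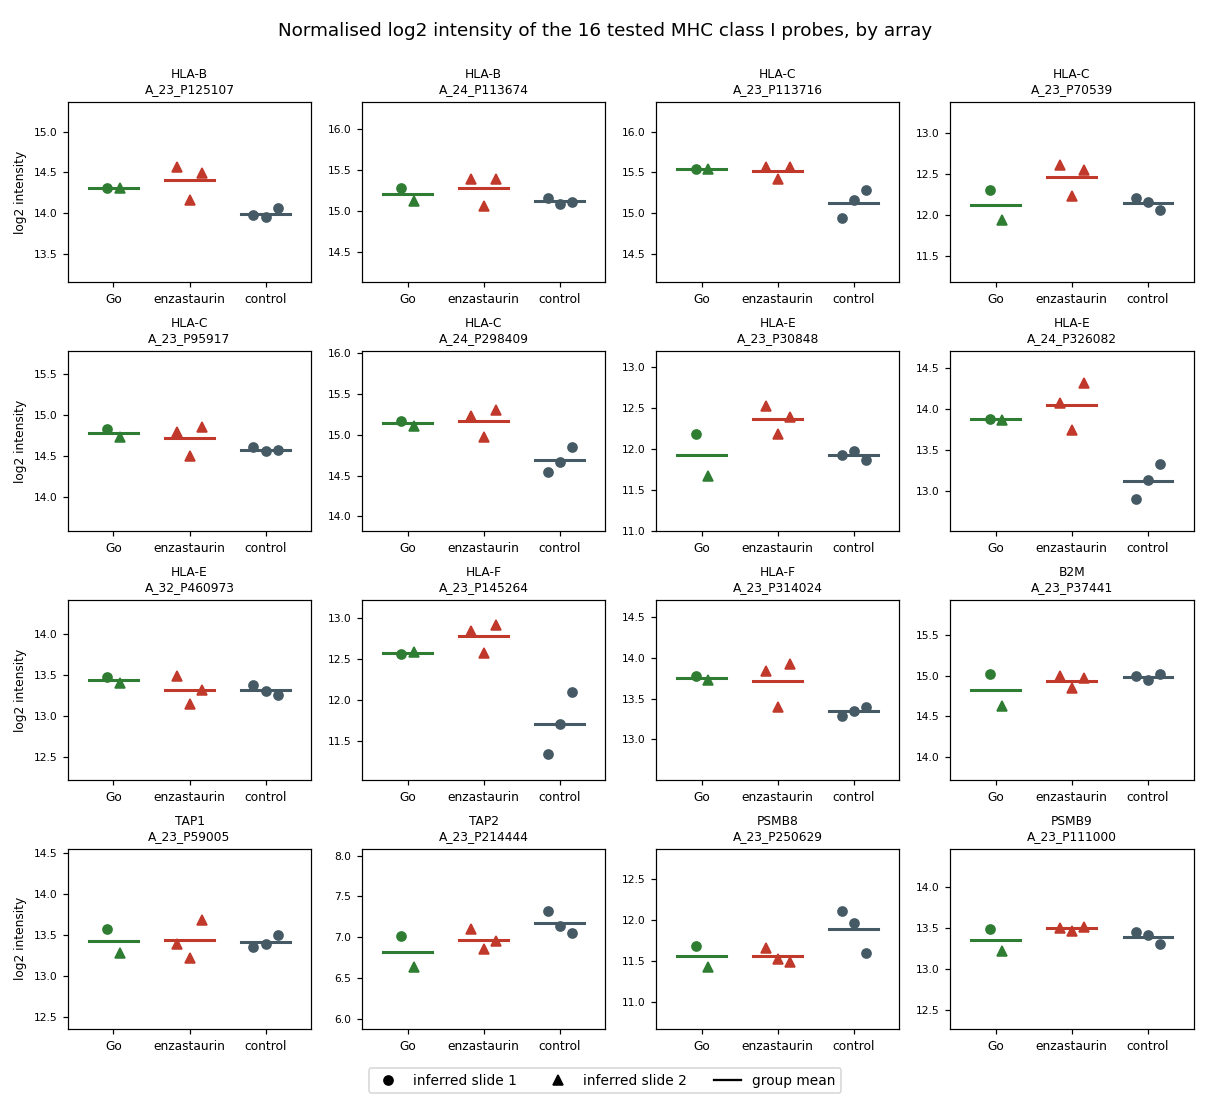
Normalised log2 intensity of each tested member probe (vertical axes, each spanning the same number of log2 units) on every array of Go (n = 2), enzastaurin (n = 3) and control (n = 3); circles are arrays placed on the first slide, triangles on the second, and lines are group means. HLA-F probe A_23_P145264 and HLA-E probe A_24_P326082 stand furthest above control, at means of 12.78 and 14.05 in enzastaurin against 11.71 and 13.11 in control. The means of B2M and TAP1 lie level between enzastaurin and control.

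The light chain did not pass the test in the reported fit. B2M probe A_23_P37441 read 28863 and 22020 in Go, 34543, 36847 and 34643 in enzastaurin, and 28103, 23036 and 28196 in control. Its unnormalised signal was highest in enzastaurin, but the whole array was brighter there, with a 75th percentile of the value table of 378 to 457 in enzastaurin and 251 to 342 in control. After normalisation it averaged 14.82 ± 0.27 in Go (SD, n = 2), 14.94 ± 0.08 in enzastaurin and 14.98 ± 0.04 in control (SD, n = 3 each). The log2 difference from control was -0.04 for enzastaurin (95% interval -0.29 to 0.20, limma adjusted p = 0.741) and -0.16 for Go (95% interval -0.43 to 0.11, adjusted p = 0.314). The sign of the enzastaurin difference turned with the scaling, at -0.13 with arrays scaled to the 75th percentile and 0.13 with arrays scaled to the median, and with the slide as a block it was 0.34 (adjusted p = 0.173). The Go difference ran from -0.35 to 0.03 over the alternative settings, and Go 2, at 14.63, was the lowest array. The other B2M probe, A_24_P740662, had deposited signals of only 38 and 82 in Go, 69, 99 and 71 in enzastaurin, and 2, 18 and 10 in control. It was not well above background on 7 of the 8 arrays and gives only a bound, at least 1.61-fold higher in Go, where Go 2 alone measured it.

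The peptide transporter showed no difference that passed in the reported fit. TAP1, probe A_23_P59005, read 13501 and 10738 in Go, 13288, 14002 and 15265 in enzastaurin, and 8984, 8219 and 11051 in control. After normalisation the groups overlapped, and the log2 difference from control was 0.02 for enzastaurin (95% interval -0.28 to 0.32, limma adjusted p = 0.906) and 0.01 for Go (95% interval -0.32 to 0.35, adjusted p = 0.955). With the slide as a block the enzastaurin difference was 0.30 (adjusted p = 0.434). Scaling arrays to the median, which moves the median of all probes from -0.07 to 0.08 for enzastaurin, gave TAP1 0.40 (adjusted p = 0.024). TAP2, probe A_23_P214444, was dim, at 74 and 34 in Go, 84, 69 and 67 in enzastaurin, and 80, 62 and 71 in control. Go 2 was its lowest array, and the log2 difference from control was -0.35 for Go (SE 0.136, limma adjusted p = 0.0816) and -0.20 for enzastaurin (SE 0.122, adjusted p = 0.189). For enzastaurin the same difference was -0.40 (adjusted p = 0.0305) with arrays scaled to the 75th percentile and 0.17 (adjusted p = 0.59) with the slide as a block. The Go difference of TAP2 ran from -0.54 to -0.17 over the alternative settings. Its other probe read 4 to 13 in Go, 4 to 10 in enzastaurin and 7 to 19 in control, never above background.

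The immunoproteasome subunits did not pass either. PSMB9, probe A_23_P111000, which lies head to head with TAP1 with starts 488 bases apart and, by background knowledge, shares a promoter region with it, read 12581 and 9883 in Go, 13904, 15665 and 13324 in enzastaurin, and 9664, 8259 and 9622 in control. Its normalised enzastaurin values lay just above the controls, at 13.47 to 13.51 against 13.31 to 13.45, with a log2 difference of 0.10 (SE 0.0872, limma adjusted p = 0.352); scaling to the median gave 0.46 (adjusted p = 0.00427) and the slide block 0.37 (adjusted p = 0.137). PSMB8, probe A_23_P250629, a subunit that replaces its constitutive counterpart under interferon, read 3521 and 2712 in Go, 3753, 3945 and 3256 in enzastaurin, and 3641, 2977 and 3119 in control. Its normalised mean was 11.55 ± 0.18 in Go (SD, n = 2), 11.56 ± 0.09 in enzastaurin and 11.89 ± 0.26 in control (SD, n = 3 each), with differences of -0.34 for both Go (limma adjusted p = 0.125) and enzastaurin (adjusted p = 0.0718). Control 3 lay among the treated arrays. Without control 3 both differences were -0.48 (adjusted p = 0.0163 for Go and 0.00708 for enzastaurin), from the authors' value table the enzastaurin difference was -0.37 (adjusted p = 0.0394), and it was 0.01 (adjusted p = 0.972) with arrays scaled to the median and -0.08 (adjusted p = 0.858) with the slide as a block.

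**Figure D2:**
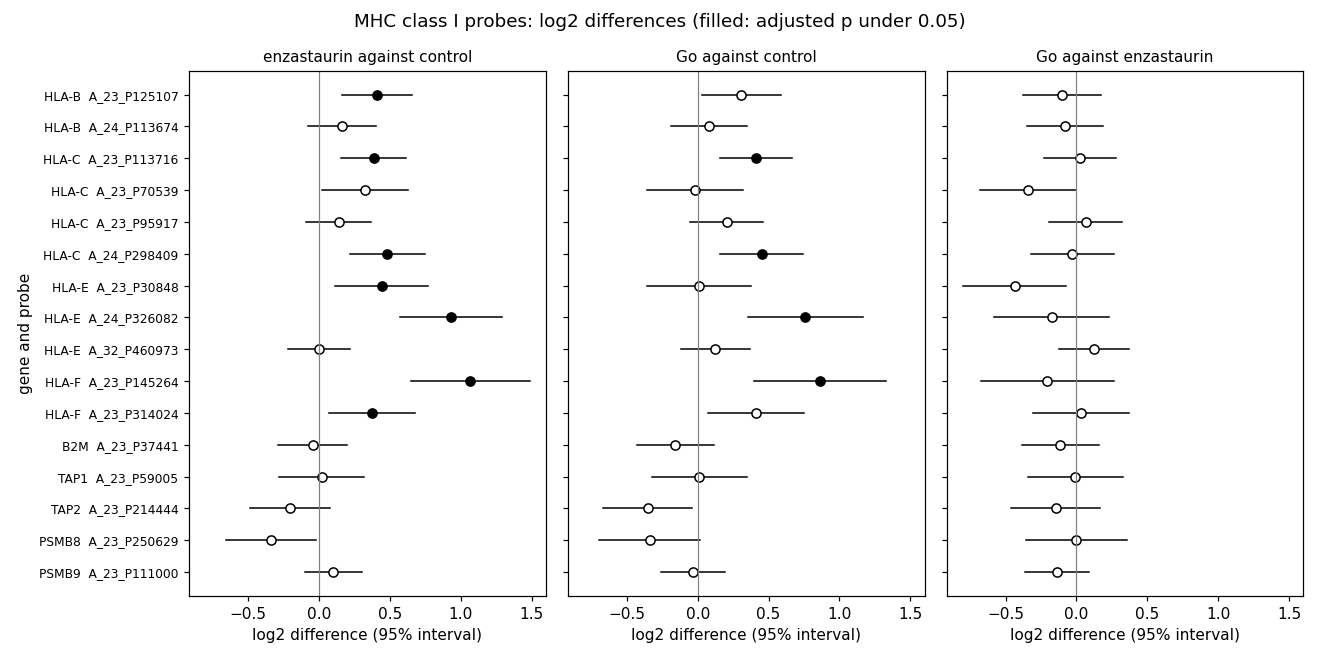
Log2 differences of the 16 tested member probes (points, with 95% intervals from limma) for enzastaurin against control, Go against control and Go against enzastaurin; filled points have an adjusted p under 0.05. The 7 filled points for enzastaurin and the 4 for Go against control are all heavy chain probes to the right of 0, and no point is filled for Go against enzastaurin.

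Go gave fewer calls. Against control 4 of 16 member probes were higher and 0 lower in Go, beside 29.6% of all probes called (13.2% higher, 16.4% lower). The Go arrays lay wholly above the controls for 8 of 16 and wholly below for 1, that of TAP2, beside 22.7% and 33.9% of all probes. The probes called were HLA-F A_23_P145264, HLA-E A_24_P326082 and the HLA-C probes A_24_P298409 and A_23_P113716, each also higher in enzastaurin; both comparisons use the same 3 control arrays. The median of the members was 0.10, against -0.07 over all probes tested, and 0.31 over the heavy chain probes. These calls depended on single arrays: 0 passed with the slide as a block (beside 5.53% of all probes), without control 2 or without Go 2, 1 without control 1, and 2 without enzastaurin 1 or enzastaurin 3, whose arrays enter through the shared spread. For Go against control the slide block and the fit without Go 2 are the same comparison, that of Go 1 with the controls. Without Go 1, where Go 2 alone stands against the controls, the HLA-C calls were lost. With enzastaurin left out of the fit altogether, 0 of 24771 probes passed. An unadjusted limma p under 0.05 was found for 8218, among them 6 member probes. For enzastaurin against control the count of 7 became 4 without control 2, enzastaurin 1 or enzastaurin 3.

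Go 1 and the controls were placed on 1 slide. In order of position on it, controls 1, 2 and 3 came first and Go 1 last. Position and treatment are therefore not separated there. All 4 probes called for Go rose along that order, HLA-F A_23_P145264 from 11.34 through 11.71 and 12.1 to 12.56. Control 3 lay above control 1 for 8 of 16 member probes, beside 42.6% of all probes. The part of position was not tested. Go 1 lay above the control mean for 14 of 16 member probes, with a median of 0.21, while 42.3% of all probes lay above 0 with a median of -0.05. All 11 heavy chain probes of Go 1 were above the highest of the 3 controls, beside 29.2% of all probes, from 0.16 above the control mean for HLA-B A_24_P113674 to 0.85 for HLA-F A_23_P145264. B2M, 0.03 above the control mean, and PSMB8, 0.21 below it, were inside the control range, TAP1 and PSMB9 were 0.15 and 0.10 above it and above the range, and TAP2 A_23_P214444 lay below the range, at -0.17. This is 1 array against 3. It is the same difference that the slide block gave for Go against control, so it is no separate observation.

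**Figure D3:**
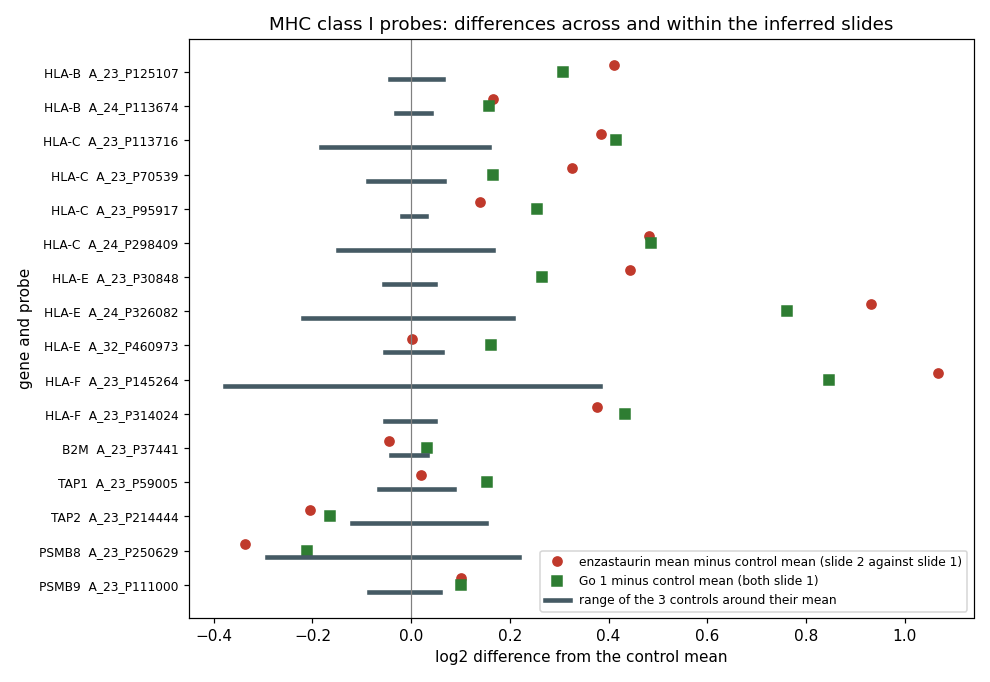
Log2 difference from the control mean (horizontal axis) of each tested member probe: red points are enzastaurin means, which lie on another slide than the controls, green squares are Go 1, on the slide of the controls, and bars span the 3 controls. For HLA-F A_23_P145264 the enzastaurin difference was 1.07 and that of Go 1 was 0.85, with controls from -0.38 to 0.38.

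Set against enzastaurin, Go differed in no member. Of the 16 probes 0 passed in limma, 2 had an unadjusted p under 0.05, and 4.43% of all probes passed. The dose of Go is not stated, so the compounds were not compared at matched doses. The median member difference was -0.09 (0.01 over all probes), and the intervals were wide: that of HLA-F A_23_P145264 ran from -0.67 to 0.26 around -0.21, and that of B2M from -0.38 to 0.16 around -0.11. The largest differences were in HLA-E A_23_P30848 (-0.44, limma adjusted p = 0.162) and HLA-C A_23_P70539 (-0.34, adjusted p = 0.219). For both, Go 2 lay below all enzastaurin arrays and Go 1 did not, and with the slide as a block the HLA-E probe was -0.69 (adjusted p = 0.0378), the only member probe to pass there, beside 2.83% of all probes lower. The Go arrays themselves differed, with Go 2 above Go 1 in only 2 of 16 member probes and a median of -0.12 for Go 2 minus Go 1, beside 45.6% of all probes and a median of -0.02.

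The rest of the class I pathway moved in no common direction. Of 16 tested genes of peptide loading, other class I molecules and their regulators, 2 were higher and 2 lower in enzastaurin than in control and 12 did not pass, with a median of -0.01. Over all probes tested, 22% were higher and 30.6% lower in enzastaurin, and 13.2% higher and 16.4% lower in Go. The largest difference was in MICA, a stress-induced ligand of the NKG2D receptor, at 10.78 ± 0.13 log2 units in enzastaurin and 9.30 ± 0.25 in control (SD, n = 3 each), a difference of 1.48 (limma adjusted p = 0.0019); its relative MICB was lower by -0.35 (adjusted p = 0.00598), as was TAPBPL, the tapasin-related peptide editor, by -0.47 (adjusted p = 0.0148). In Go MICA was 0.98 above control (limma adjusted p = 0.029), while MICB at -0.30 and MR1, which presents vitamin metabolites, at -0.33 were lower (adjusted p = 0.034 for each), and 13 of the 16 did not pass. MR1 was also the only gene of this list to differ between the compounds, at -0.43 in Go against enzastaurin (limma adjusted p = 0.0433), beside 4.43% of all probes. With the slide as a block no gene of this list passed against control, MICA giving 0.54 (adjusted p = 0.243) for enzastaurin. CD1D, ULBP1 and ULBP3 were never above background.

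Of 18 other proteasome genes, 3 were higher, 6 lower and 9 not called in enzastaurin against control, with a median of -0.08. These counts stand beside 22% higher and 30.6% lower of all probes tested. PSMB5, the constitutive catalytic subunit that PSMB8 replaces, was lower by -0.61 (SE 0.106, limma adjusted p = 0.0027), and the structural subunits PSMA1, PSMA6 and PSMB4 were higher by 0.73, 0.50 and 0.50 (adjusted p from 0.00288 to 0.011). Against control, Go had 2 genes higher and 3 lower, among them PSMA6 (0.48), PSMB4 (0.44), PSMA4 (-0.41) and PSMB5 (-0.39), and between Go and enzastaurin 0 of 18 passed. Over all probes the shares were 13.2% higher and 16.4% lower in Go against control, and 4.43% called between the compounds. None of the 18 passed against control with the slide as a block, where the enzastaurin differences were -0.06 for PSMA1, whose sign turned, 0.40 for PSMA6, 0.23 for PSMB4 and -0.22 for PSMB5.

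Regulators that act on class I promoters were also mixed. Of 22 genes of interferon and NF-kB signalling, 4 were higher, 4 lower and 14 not called in enzastaurin, beside 22% higher and 30.6% lower of all probes. IRF1, the interferon-induced activator that binds the interferon element, was lower by -0.93 (SE 0.175, limma adjusted p = 0.00383) and NFKB1, which encodes the p105 and p50 NF-kB proteins, by -0.62 (SE 0.102, adjusted p = 0.00228). IRF3 was higher by 1.08 (SE 0.193, limma adjusted p = 0.00303) and SOCS3, a feedback inhibitor of cytokine signalling, by 0.60 (SE 0.136, adjusted p = 0.00802). In Go NFKB1 was lower by -0.54 (limma adjusted p = 0.0178), IRF3 higher by 0.85 (adjusted p = 0.027) and IRF2 higher by 0.36 (adjusted p = 0.0474), with 19 not called. Among all probes 13.2% were higher and 16.4% lower in Go. SOCS3 was lower in Go than in enzastaurin by -1.05 (SE 0.152, limma adjusted p = 0.013), a difference of -0.83 with the slide as a block (adjusted p = 0.0275). In the block, enzastaurin against control gave -0.31 for IRF1 (adjusted p = 0.448), -0.33 for NFKB1 (adjusted p = 0.248), 0.20 for IRF3 (adjusted p = 0.37) and 0.15 for SOCS3 (adjusted p = 0.657). Go against control gave -0.45 for SOCS3 (limma adjusted p = 0.0547), or -0.68 in the block (adjusted p = 0.0451), and in the block -0.39 for NFKB1 (adjusted p = 0.0956), 0.41 for IRF3 (adjusted p = 0.0614) and 0.19 for IRF2 (adjusted p = 0.257).

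MHC class II genes, which present peptides to CD4+ T cells, also include near-identical copies, so their probes carry the same uncertainty. Of 12 tested, 6 were higher and 0 lower in enzastaurin, with a median of 0.37, and 3 were higher and 0 lower in Go, with a median of 0.07. The shares of all probes were 22% higher and 30.6% lower in enzastaurin, and 13.2% higher and 16.4% lower in Go. HLA-DMB, a subunit of the class II peptide editor, averaged 9.84 ± 0.20 in enzastaurin and 8.29 ± 0.35 in control (SD, n = 3 each), a difference of 1.55 (limma adjusted p = 0.000783). HLA-DQB1 was higher by 1.50 (adjusted p = 0.000407), HLA-DRA by 1.12 (adjusted p = 0.00112) and HLA-DPA1 by 1.06 (adjusted p = 0.000614), and HLA-DQB1 was the gene of this list that passed in the slide block (1.07, adjusted p = 0.0403), where HLA-DMB gave 1.29 (adjusted p = 0.0971), HLA-DPA1 1.02 (adjusted p = 0.0642) and HLA-DRA 0.48 (adjusted p = 0.106). Go was above control by 1.16 for HLA-DMB (limma adjusted p = 0.0122), 0.76 for HLA-DQB1 (adjusted p = 0.0143) and 0.69 for HLA-DPA1 (adjusted p = 0.0127), none of which passed in the block (adjusted p from 0.0631 to 0.0692). CIITA, the class II transactivator, and HLA-DQB1 were lower in Go than in enzastaurin, at -0.48 (limma adjusted p = 0.0334) and -0.73 (adjusted p = 0.0359). HLA-DMB lies next to PSMB9 in the gene order of chromosome 6, which runs HLA-DOB, TAP2, PSMB8, TAP1, PSMB9, HLA-DMB.

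**Figure D4:**
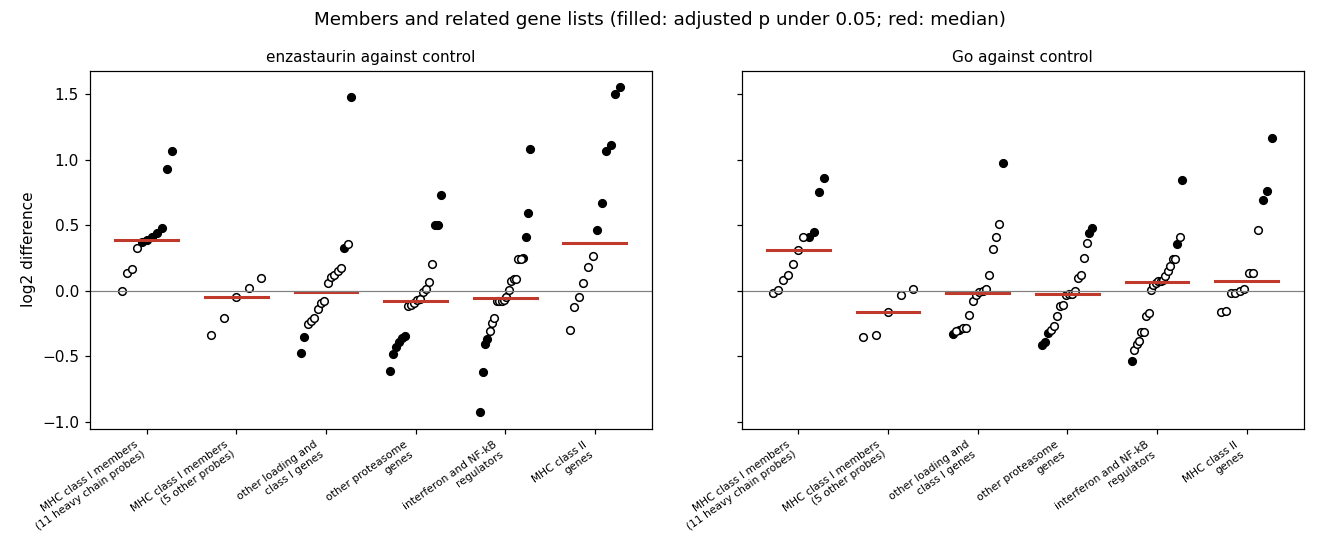
Log2 differences (vertical axis) for enzastaurin against control and Go against control of the member probes, split into heavy chains and the other members, and of 4 related gene lists with 1 probe per gene; filled points have a limma adjusted p under 0.05 and red lines are medians. The medians for enzastaurin are 0.39 for heavy chain probes, -0.04 for the other members and 0.37 for class II genes, against -0.01, -0.08 and -0.06 for the 3 remaining lists.

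Markers of cells other than carcinoma cells were read beside these results. All 8 keratinocyte markers were above background on every array. Of 7 leukocyte markers PTPRC, which encodes the common leukocyte antigen CD45, was never above background and 5 were tested; their summed intensity was 783 to 786 in Go, 739 to 760 in enzastaurin and 748 to 820 in control. Of 7 fibroblast markers 4 were tested, with a summed intensity of 1448 to 1708 in Go, 1369 to 1671 in enzastaurin and 439 to 925 in control. The fibroblast sum was thus higher in both treated groups, mainly through THY1, the brightest of the 4, while COL1A1 did not pass. THY1 averaged 10.31 ± 0.21 in Go (SD, n = 2), 10.24 ± 0.19 in enzastaurin and 8.39 ± 1.02 in control (SD, n = 3 each). It was higher by 1.92 in Go (limma adjusted p = 0.0259) and 1.85 in enzastaurin (adjusted p = 0.00896). In the slide block these were 1.78 (adjusted p = 0.131) and 1.56 (adjusted p = 0.304). In enzastaurin LUM was also higher (0.56, limma adjusted p = 0.00137), or 0.38 in the slide block (adjusted p = 0.146). DCN was lower (-0.33, limma adjusted p = 0.0319), or -0.01 in the block (adjusted p = 0.974). However, DCN was above background on 0 enzastaurin arrays and 1 control array. PDGFRB was never above background, and COL1A2 and COL3A1 were on at most 1 array. Their part in the heavy chain result was not tested.

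Genes outside the member list were ranked by their correlation with TAP1 across all 8 arrays. In so wide a search over few arrays high values are likely to occur, so the ranking does not show how closely TAP1 follows its pathway. The highest Pearson correlations with TAP1 among named probes were those of TRAPPC10 (0.93), RPS6KA5 (0.92) and B4GALT4 (0.92), while the median over 18252 named probes was 0.00. Among the members the correlation with TAP1 ran from -0.11 for PSMB8 to 0.65 for HLA-B A_24_P113674, and was 0.59 for B2M and 0.36 for PSMB9, its head-to-head neighbour. These are descriptions over 8 arrays that share slides and groups.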

How the data were processed

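Total RNA of 8 CAL-27 samples was labelled with Cy3 and hybridised to single-colour arrays, per the labels' protocols. The scanner tables, GenePix results per the file headers, hold intensity of foreground and background per spot, uncorrected, with a signal-to-noise score and a percent of saturated pixels as deposited. The deposited value table holds the authors' linear intensity after background subtraction, without normalisation. Build and processing tools are not given in the sources used here.

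The annotation columns of the scanner tables run end for end against the spots and were turned round: the rank correlation with the value table was 0.00767 to 0.0131 as deposited and 0.989 to 0.993 after turning. The normexp correction (offset 50) was applied to foreground means with background medians, followed by quantile normalisation, in limma 3.58.1 (R 4.3.3), spots of a probe were averaged, and probes with a score over 3 on at least 2 arrays were tested in 1 fit of 3 groups with Benjamini-Hochberg adjustment at 0.05. Groups and replicate numbers were read from the sample titles, and slides were inferred from spot positions. The array count limits the precision. Same-numbered arrays were not treated as pairs, since their deviations did not correlate in every pair. All member probes are shown, and up to 4 called genes of each related list, with the largest differences among those above background in a whole group and without overlap; of the 5 genes most like TAP1, 3 are given and the others are not reported here. The members and lists were chosen with earlier results of these data known. List genes were named through RefSeq (23860 probes by accession, 2007 by current and 961 by older symbol). Motifs were searched with Python 3.11. Alternatives were other scalings, the value table as log2(value + 50), no filter on dim probes, 1 probe per gene symbol, slide and replicate blocks, fits of 2 groups and leaving out each array. The fit was also run on simulated data with known changes, but that outcome is not reported here and lends the results no weight.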

Additional observations from a re-analysis of the deposited data

How the results depend on the processing

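With the slide as a block, 861 probes passed for enzastaurin against control (13038 without), 1371 for Go against control (7338) and 1329 for Go against enzastaurin (1098), and the member probes called were 1, 0 and 1, against 7, 4 and 0 without the block; the median member difference for enzastaurin was 0.38 in place of 0.25. With arrays scaled to the median, 13 member probes (45.6% of all probes) passed for enzastaurin, with a median of 0.48, the Go median was 0.26 in place of 0.10, and 4430 probes passed for Go; the share of calls that were higher was 64.8%, 72.2% and 28.5% in the 3 comparisons, against 41.8%, 44.7% and 53.1% in the reported fit, and 30.8%, 43% and 61.6% with the 75th percentile. With 1 probe per gene symbol 3 of 9 members passed for enzastaurin (median 0.10), beside 54% of all genes, and 2 for Go, beside 29.4%. In fits of the 2 groups alone, 0 probes and 0 member probes passed for Go against control. With the replicate block, 7 member probes passed for Go against control (5 higher), 257 probes in all for Go against enzastaurin, and no other count moved by over 1.5 times; deviations of same-numbered control and enzastaurin arrays correlated by 0.12, -0.00 and 0.13, so the numbers were not taken as pairs. Leaving out 1 array at a time gave 9483 to 14315 probes and 4 to 9 member probes for enzastaurin against control (median 0.18 to 0.36), 928 to 10201 probes and 0 to 5 member probes for Go against control (median 0.05 to 0.21), and 154 to 2588 probes and 0 to 1 member probes for Go against enzastaurin (median -0.16 to 0.02). The low and high ends were without control 2 and control 3 for Go against control, and without enzastaurin 2 and Go 2 for Go against enzastaurin; the cause was not tested. Of the single-probe values under all alternatives 669 kept their side of the threshold, 48 lost it and 30 gained it. Dim probes (TAP2 and the second B2M probe) are limited by signal over background.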

Other observations

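Of 8 keratinocyte markers 4 were lower in Go than in control and 0 higher, beside 16.4% of all probes lower and 13.2% higher. They were KRT14, a basal keratin (-0.79, SE 0.238, limma adjusted p = 0.0408), and TP63, the transcription factor of squamous epithelium (-0.63, SE 0.153, adjusted p = 0.0236). SFN, which encodes stratifin (-0.51, SE 0.0782, limma adjusted p = 0.00899), and DSG3, a desmosomal cadherin (-0.42, SE 0.0821, adjusted p = 0.0146), were the others. In the slide block, where Go rests on Go 1 alone, KRT14 (-1.03), TP63 (-0.47) and DSG3 (-0.38) no longer passed, and SFN gave -0.46. In enzastaurin TP63 was lower (-0.75, limma adjusted p = 0.00334) and SFN higher (0.31, adjusted p = 0.00824) than in control. Neither passed in the block, at -0.41 (limma adjusted p = 0.311) and 0.41 (adjusted p = 0.11). SFN alone of the 8 passed between the compounds, and was lower in Go than in enzastaurin by -0.82 (SE 0.0782, limma adjusted p = 0.00496), a difference of -0.87 with the slide as a block (adjusted p = 0.0105).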
